A study of Homo sapiens with 6 samples.

Results

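The enzymes that turn squalene epoxide into lanosterol and lanosterol into cholesterol were followed by poly(A) RNA sequencing in 8505C, a human cell line derived from an anaplastic thyroid cancer. The group holds 9 genes, LSS, CYP51A1, TM7SF2, MSMO1, NSDHL, HSD17B7, EBP, SC5D and DHCR7. They were taken by gene name from the 33539 genes of the deposited table, and each name matched 1 row. LBR, which also acts after lanosterol, is outside the group and is given beside it. The tested cells received siRNA against POLR1F, a subunit of the RNA polymerase that makes ribosomal RNA (siPOLR1F, 3 libraries). The comparison cells received control siRNA (NC, 3 libraries). Whether any difference came from effects of the siRNA on genes other than POLR1F was not tested. Both groups were kept in medium with 10% fetal bovine serum, which itself carries cholesterol, and were treated for 24 h. All libraries carry the same batch label. The labels do not tell whether the 3 libraries of a group are separate cultures, so each p-value reflects library-to-library spread that could be technical. The genes were proposed with the fold changes of siPOLR1F over NC from these libraries in view, and so count as selected on that difference. Their fold changes and calls are therefore a description of where they stood in the fit over all genes, and not a test of the group.

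Lanosterol is the first sterol of the pathway, made when LSS closes the chain of squalene epoxide into rings. The later enzymes sit in the membrane of the endoplasmic reticulum and remove methyl groups, move a double bond and reduce others until cholesterol is left. In most cells the genes of this pathway are switched on together by SREBP transcription factors when sterols in that membrane run low, and the same factors drive uptake of cholesterol from lipoproteins. SREBP binds poorly alone and is known to act together with NF-Y and Sp1, which bind CCAAT boxes and GC boxes in promoters.

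POLR1F itself was at 2.10, 1.42 and 1.51 FPKM in the siPOLR1F libraries, against 8.80, 8.42 and 7.64 FPKM in the NC libraries. FPKM corrects a count for the length assigned to the gene and for the depth of the library. The lengths behind the deposited FPKM were not examined, so levels of different genes compare only as far as these lengths fit. Total counts per library ranged over 60576788 to 63038378. Of the thyroid markers NKX2-1 was present at 27.5 ± 1.62 FPKM in siPOLR1F and 45.2 ± 3.02 FPKM in NC (SD, n = 3 each), PAX8 averaged 0.491 FPKM in siPOLR1F and 0.543 FPKM in NC, FOXE1 averaged 0.201 FPKM in siPOLR1F and 0.209 FPKM in NC, and TG, TSHR and SLC5A5 were each below 0.1 FPKM. The epithelial keratins KRT8 and KRT18 were present in both groups, and together lay between 225.3 and 255.8 FPKM in siPOLR1F and between 265.2 and 297.2 FPKM in NC. The summed thyroid markers lay between 26.6 and 29.8 FPKM in siPOLR1F and between 42.9 and 47.6 FPKM in NC. Of 6 measured markers of leukocytes, endothelium, liver and fibroblasts, 4 had means below 0.1 FPKM in both groups, PECAM1 averaged 0.413 FPKM in siPOLR1F and 0.292 FPKM in NC, and CDH5 was at 2.72 ± 0.671 FPKM in siPOLR1F and 5.65 ± 0.223 FPKM in NC (SD, n = 3 each). The summed markers of these other cell types lay between 2.44 and 4.17 FPKM in siPOLR1F and between 5.70 and 6.24 FPKM in NC. CDH5 alone made up most of each sum, at 2.47, 3.49 and 2.22 FPKM in siPOLR1F and 5.43, 5.64 and 5.88 FPKM in NC. The part of these markers in the results below was not tested. In bulk RNA, fewer cells of a kind and less RNA per cell cannot be told apart.

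The promoters are shown for 4 enzyme genes that span the range of response described below, MSMO1, HSD17B7, CYP51A1 and EBP. Each line gives the 250 bases before the RefSeq start of the gene (GRCh38.p14), read along the gene's own strand from 5′ to 3′. Capitals mark CCAAT boxes on either strand, so that ATTGG is a box on the other strand.
MSMO1, chr4:165327419-165327668, plus strand: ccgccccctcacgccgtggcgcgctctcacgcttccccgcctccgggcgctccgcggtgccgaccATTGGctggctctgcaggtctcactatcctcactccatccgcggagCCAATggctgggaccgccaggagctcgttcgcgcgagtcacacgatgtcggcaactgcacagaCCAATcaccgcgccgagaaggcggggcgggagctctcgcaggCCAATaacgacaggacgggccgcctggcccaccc
HSD17B7, chr1:162790452-162790701, plus strand: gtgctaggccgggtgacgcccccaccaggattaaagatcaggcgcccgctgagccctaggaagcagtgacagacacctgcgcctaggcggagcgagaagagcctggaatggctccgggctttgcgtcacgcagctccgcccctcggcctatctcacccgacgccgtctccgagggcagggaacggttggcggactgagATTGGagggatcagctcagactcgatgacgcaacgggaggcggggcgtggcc
CYP51A1, chr7:92134478-92134727, minus strand: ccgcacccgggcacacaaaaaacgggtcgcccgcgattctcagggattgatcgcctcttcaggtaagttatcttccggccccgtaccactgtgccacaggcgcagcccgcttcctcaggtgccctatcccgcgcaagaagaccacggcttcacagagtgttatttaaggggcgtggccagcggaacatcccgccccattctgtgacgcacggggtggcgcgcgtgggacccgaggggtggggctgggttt
EBP, chrX:48521558-48521807, plus strand: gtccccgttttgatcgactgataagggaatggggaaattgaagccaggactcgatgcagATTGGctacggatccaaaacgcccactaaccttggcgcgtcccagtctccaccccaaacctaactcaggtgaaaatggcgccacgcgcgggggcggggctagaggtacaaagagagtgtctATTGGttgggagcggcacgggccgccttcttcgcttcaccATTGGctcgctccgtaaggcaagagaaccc

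CCAAT boxes were a common feature of these promoters, and the windows for all 9 genes reach 50 bases past the start. CCAAT was present on either strand in 8 of the 9 genes, against 39.7% of all 27305 genes in the RefSeq promoter table, and CYP51A1 was the exception. The 27305 genes were not limited to those expressed in these cells, so the shares are not from a matched background. At least 2 boxes were found in 5 of the 9, against 12.9% of all genes. NSDHL had 5, of which 1 pair overlaps on opposite strands, MSMO1 had 4, EBP had 3, and DHCR7 and HSD17B7 had 2 each, of which 1 in HSD17B7 lies past the start and is not in the line above. The GC box GGGCGG was in 8 of the 9, with NSDHL as the exception, against 48.3% of all genes. The E-box CACGTG was in LSS and SC5D, against 8.78% of all genes. The letters TCACNCCAC, a consensus of the sterol regulatory element bound by SREBP, were in none of the 9 windows and in 1.39% of all genes. Only exact matches were counted, so elements that differ from these letters would be missed. A gene with several starts was counted when any of its windows held the motif. A relation between the number of CCAAT boxes and the fold changes given below was not tested. MSMO1 with 4 boxes had the largest fall, and CYP51A1 without a box moved little. NSDHL with 5 and EBP with 3 were among the genes that moved least.

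**Figure D1:**
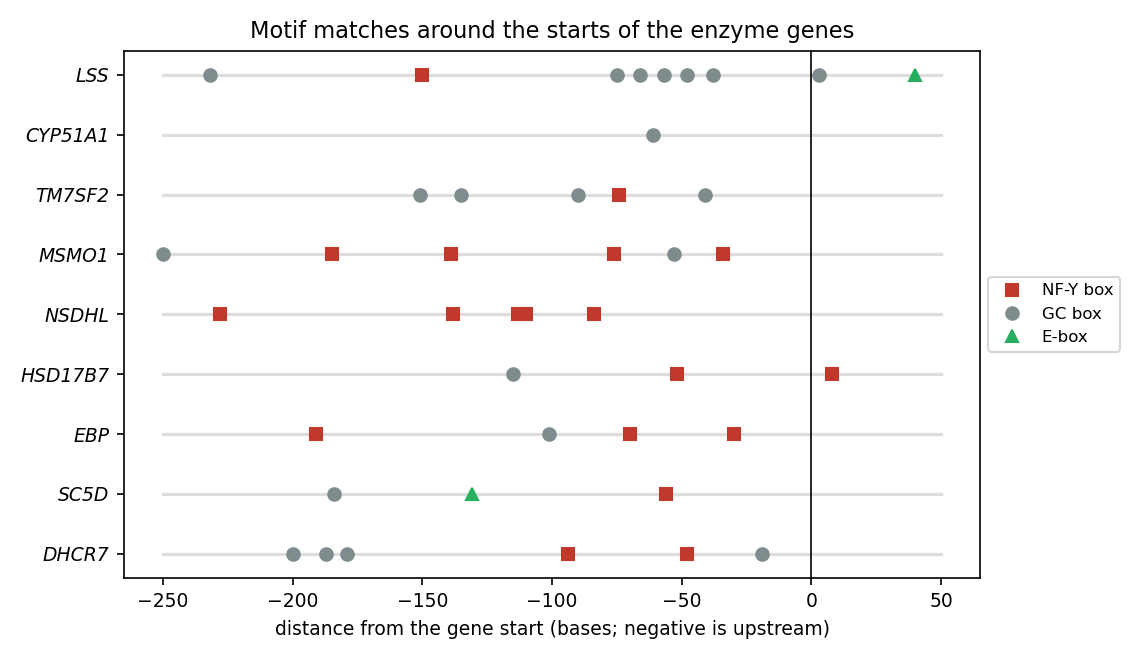
Matches of 3 motifs on either strand around the start of each enzyme gene; the horizontal axis gives the distance from the start in bases and each row is 1 gene (the window of lowest coordinate where a gene has several starts). CCAAT boxes (squares) stand in every row but CYP51A1, and NSDHL holds 5.

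Most of the 9 enzyme genes were lower after POLR1F silencing. With the edgeR quasi-likelihood test and adjustment over all 13564 genes tested, MSMO1, TM7SF2, SC5D, DHCR7 and LSS fell, none of the 9 rose, and HSD17B7, CYP51A1, NSDHL and EBP did not pass. A gene was called when its adjusted p was below 0.05. These 5 of 9 stand beside a background of 6.94% of all tested genes called lower, and the 0 of 9 beside 10.3% called higher, and since the genes were picked with this contrast known nothing is read from the difference. The median log2 fold change was -0.38 over the 9 genes and -0.01 over all genes tested, and 8 of the 9 values were below 0. With only genes of a mean of at least 5 FPKM in the fit, 6 of the 9 were tested and their median was -0.26. In 7 of the 9 genes each siPOLR1F library had a lower FPKM than each NC library, an arrangement found in 19.0% of all tested genes. All 9 genes passed the filter on low values, a mean of at least 0.5 FPKM over the 6 libraries.

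**Figure D2:**
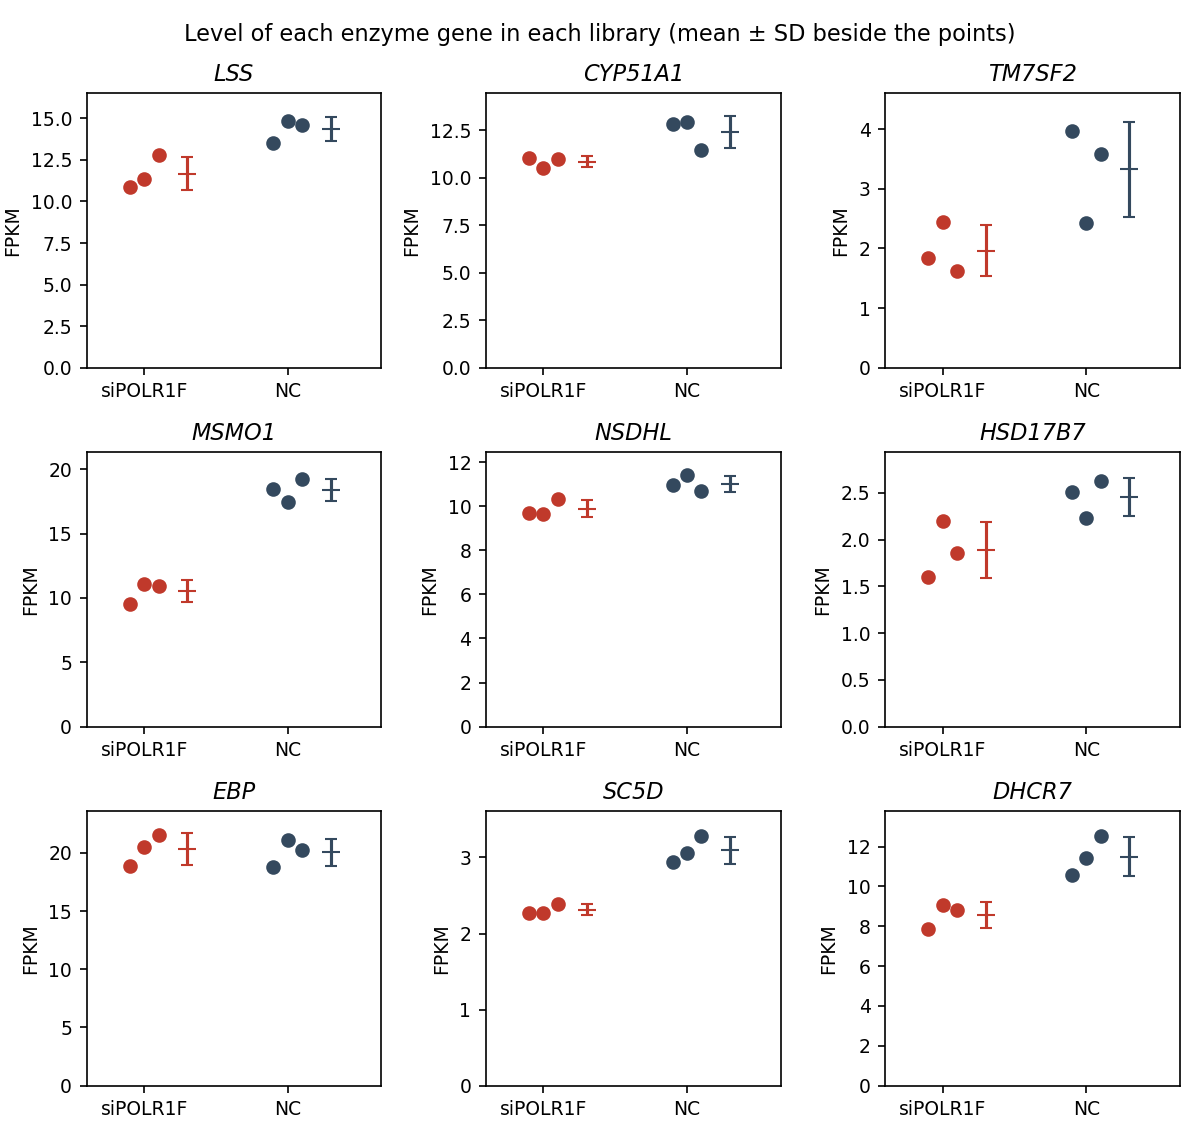
FPKM of each enzyme gene in each library, siPOLR1F on the left and NC on the right of every panel; dots are libraries and the bars beside them give the mean ± SD (n = 3). MSMO1 is at 10.5 FPKM in siPOLR1F and 18.4 FPKM in NC, while the EBP libraries of both groups cover the same range.

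The ring closure and the first steps on lanosterol showed small differences in the genes of higher FPKM. LSS (ENSG00000160285, GRCh38 chromosome 21, 46188141 to 46228822, minus strand), which makes lanosterol, was at 10.9, 11.4 and 12.8 FPKM in siPOLR1F, against 13.5, 14.9 and 14.6 FPKM in NC. The groups did not overlap, and siPOLR1F replicate 3 was nearest to NC. LSS fell by 0.29 on the log2 scale (SE 0.07; edgeR adjusted p = 0.0273). Its call ended without siPOLR1F replicate 1 (edgeR adjusted p = 0.0922) or 2 (0.0912), without NC replicate 2 (0.0626) or 3 (0.0744), and with no expression filter (0.132). Its adjusted p ran over 0.00233 to 0.132 in the edgeR, DESeq2 and limma fits. On the opposite strand ENSG00000223901 and ENSG00000228404 share 122 and 448 annotated exon bases with LSS. They had at most 35 and 2 counts in any library. CYP51A1 (ENSG00000001630, chromosome 7, 92084987 to 92134503, minus strand), the cytochrome P450 that starts removal of a methyl group from lanosterol, was at 11.1, 10.5 and 11.0 FPKM in siPOLR1F, against 12.8, 12.9 and 11.5 FPKM in NC. NC replicate 3 lay just above the siPOLR1F libraries. AKAP9, on the opposite strand, overlaps the range of CYP51A1 but shares 0 annotated exon bases with it. ENSG00000289027, on the same strand, had 0 to 53 counts, and its shared bases were not determined. CYP51A1 had a log2 fold change of -0.19 with a 95% interval of -0.35 to -0.02 (edgeR adjusted p = 0.109), and it was not called under any of the 15 other settings run.

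TM7SF2 and LBR encode the reductases that can act after CYP51A1, LBR being also the lamin B receptor of the inner nuclear membrane. TM7SF2 (ENSG00000149809, chromosome 11, 65111845 to 65116384, plus strand) was at 1.83, 2.45 and 1.61 FPKM in siPOLR1F, against 3.96, 2.42 and 3.59 FPKM in NC. The groups overlapped, because siPOLR1F replicate 2 was the highest of its group and NC replicate 2 the lowest of its own. With counts of 440, 593 and 388 in siPOLR1F and 960, 564 and 853 in NC, the log2 fold change was -0.74 and its SE of 0.21 was the widest of the 9 (edgeR adjusted p = 0.0458). TM7SF2 was called in 7 of the 15 settings that tested it. The call ended without NC replicate 1 (edgeR adjusted p = 0.126) or 3 (0.118), without siPOLR1F replicate 1 (0.124) or 3 (0.144), with no filter (0.169), with limma on log2(FPKM + 1) (0.0568) or log2(FPKM + 0.1) (0.0565) and with the replicate number as a block (0.0578), within 0.00232 to 0.169 over its alternatives. The end of VPS51, on the same strand, shares 16 annotated exon bases with TM7SF2, and the log2 fold change for VPS51 was -0.23 (edgeR adjusted p = 0.0487). LBR had a far higher FPKM, at 15.8, 17.0 and 18.2 FPKM in siPOLR1F and 18.8, 18.6 and 18.5 FPKM in NC. Its log2 fold change was -0.13 (edgeR adjusted p = 0.197). The FPKM of TM7SF2 as a share of that of LBR was therefore 0.116, 0.144 and 0.0885 in siPOLR1F, against 0.211, 0.130 and 0.194 in NC.

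The removal of the methyl groups at the next position is shared by MSMO1, NSDHL and HSD17B7, which work in sequence, and the differences ranged widely among the 3 genes. MSMO1 (ENSG00000052802, chromosome 4, 165327667 to 165343164, plus strand), the oxidase of the first reaction, was at 9.54, 11.1 and 10.9 FPKM in siPOLR1F, against 18.4, 17.5 and 19.2 FPKM in NC. The gap between the groups was several times the spread inside either. MSMO1 had 10.5 ± 0.864 FPKM in siPOLR1F and 18.4 ± 0.872 FPKM in NC (SD, n = 3 each), which is 42.7% lower. On the log2 scale the change was -0.80 (SE 0.08; edgeR adjusted p = 5.45e-04), and MSMO1 was called lower in each of the 15 other settings, with log2 fold changes from -0.83 to -0.73.

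NSDHL (ENSG00000147383, chromosome X, 152830967 to 152869363, plus strand), the dehydrogenase that removes the oxidised carbon, was at 9.69, 9.64 and 10.3 FPKM in siPOLR1F, against 11.0, 11.4 and 10.7 FPKM in NC. The groups lay next to each other without overlap. NSDHL had a log2 fold change of -0.15 with a 95% interval of -0.31 to 0.02 (edgeR adjusted p = 0.193), and no setting called it. HSD17B7 (ENSG00000132196, chromosome 1, 162790702 to 162812823, plus strand), the ketone reductase that ends each round, was at 1.60, 2.20 and 1.85 FPKM in siPOLR1F, against 2.51, 2.23 and 2.63 FPKM in NC. The groups were separated only by the small gap between siPOLR1F replicate 2 and NC replicate 2. For HSD17B7 the log2 fold change was -0.38 (SE 0.14; edgeR adjusted p = 0.0935), and DESeq2 was the only setting with a call (adjusted p = 0.0479). HSD17B7P2 on chromosome 10 is a near copy, with 115, 124 and 117 counts in siPOLR1F and 135, 148 and 131 in NC, while HSD17B7 had 535, 744 and 617 counts in siPOLR1F and 851, 725 and 876 in NC. Reads may be divided between the copies, so the HSD17B7 values are uncertain.

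Since MSMO1 and NSDHL act one after the other, their balance was also taken within each library, where it does not depend on how libraries are scaled. The FPKM ratio of MSMO1 to NSDHL was 0.984, 1.15 and 1.06 in siPOLR1F, against 1.68, 1.53 and 1.80 in NC. The ratios of the groups did not overlap. This restates the fold changes of both genes given above, and the share of other gene pairs with such a gap was not determined. ERG28, known as a scaffold that holds this group of enzymes together in yeast, was at 8.63, 9.97 and 9.66 FPKM in siPOLR1F, against 12.0, 11.5 and 13.5 FPKM in NC. ERG28 fell by 0.38 on the log2 scale (SE 0.09; edgeR adjusted p = 0.0203). The call ended without siPOLR1F replicate 1 (0.0695) or 3 (0.0570), without NC replicate 3 (0.0642) and with no filter (0.0864), within 0.00159 to 0.0864 over the alternatives.

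**Figure D3:**
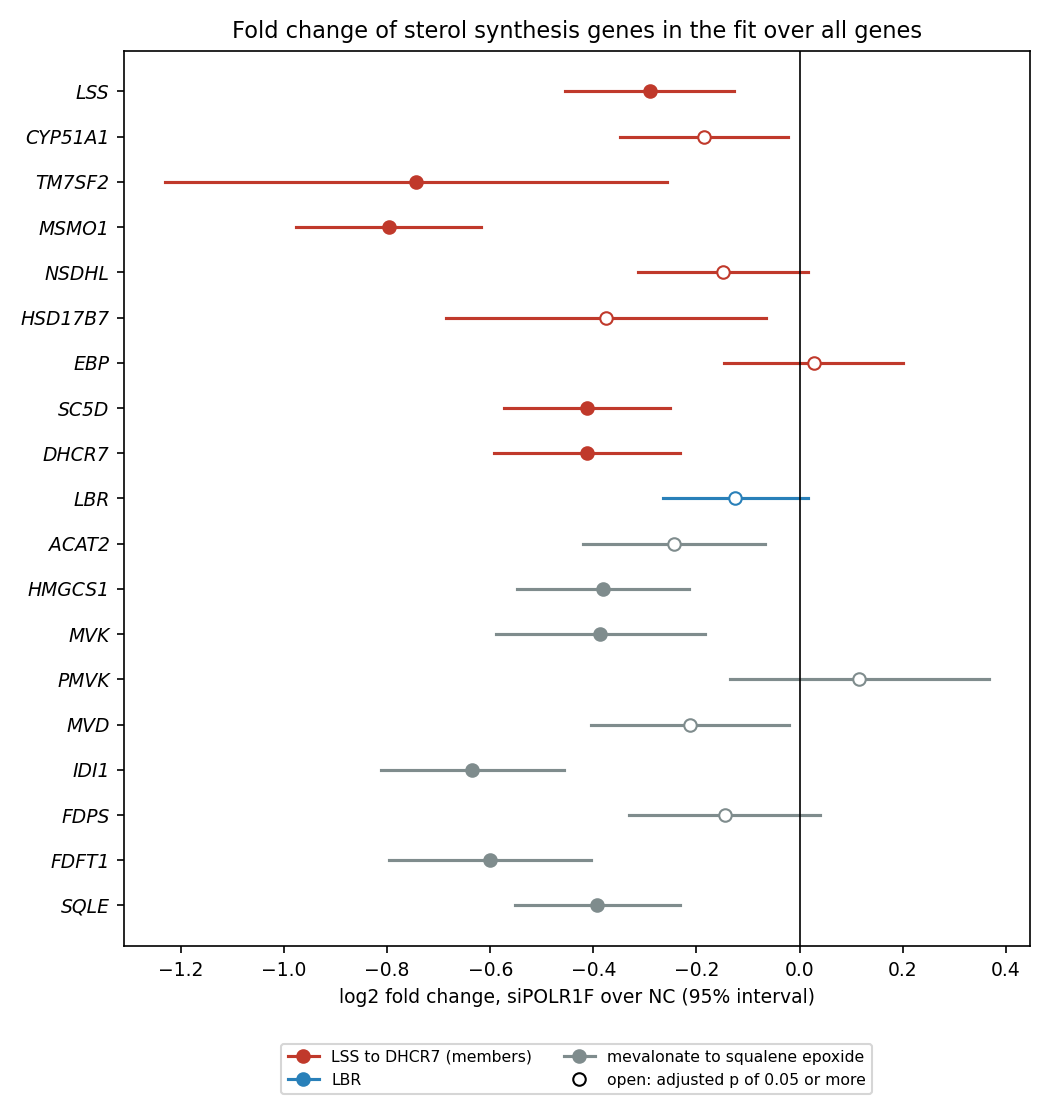
Log2 fold change of siPOLR1F over NC (horizontal axis) with its 95% interval for the 9 enzyme genes in pathway order, for LBR, and for 9 genes of the pathway up to squalene epoxide; open circles did not pass the edgeR test. MSMO1 lies at -0.80 and EBP at 0.03.

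The last steps shift and reduce double bonds, and here EBP stood apart from its neighbours in the pathway. EBP (ENSG00000147155, chromosome X, 48521799 to 48528710, plus strand), the isomerase that moves the double bond, was at 18.9, 20.5 and 21.5 FPKM in siPOLR1F, against 18.8, 21.1 and 20.3 FPKM in NC. The groups overlapped over nearly their whole range. EBP had a log2 fold change of 0.03 with a 95% interval of -0.15 to 0.20 (edgeR adjusted p = 0.842), so that a fall of the size seen in MSMO1 lies outside the interval. The sign of the EBP value is not fixed, as it ranged from -0.02 to 0.07 over the settings.

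SC5D (ENSG00000109929, chromosome 11, 121292681 to 121313410, plus strand), the desaturase that follows EBP, was at 2.27, 2.27 and 2.39 FPKM in siPOLR1F, against 2.94, 3.06 and 3.28 FPKM in NC. All siPOLR1F libraries were close together and below NC. The log2 fold change was -0.41 (SE 0.07; edgeR adjusted p = 0.0067), and SC5D was called in each of the 14 other settings that tested it. DHCR7 (ENSG00000172893, chromosome 11, 71428193 to 71452868, minus strand), the reductase whose loss causes Smith-Lemli-Opitz syndrome, was at 7.86, 9.09 and 8.82 FPKM in siPOLR1F, against 10.6, 11.4 and 12.5 FPKM in NC. The groups did not overlap, and DHCR7 was 25.3% lower. It fell by 0.41 on the log2 scale (SE 0.08; edgeR adjusted p = 0.0106). Its call ended with no filter (0.0624), within 3.37e-05 to 0.0624 over its alternatives. A noncoding gene on the opposite strand inside DHCR7, ENSG00000254682, had 67, 67 and 101 counts in siPOLR1F and 140, 116 and 143 in NC, against 3750, 4400 and 4212 counts of DHCR7 in siPOLR1F and 5118, 5303 and 5978 in NC. The 2 genes share no annotated exon bases, and the strand setting of the counting is not given in the sources used here.

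EBP and DHCR7 are known to form the microsomal antiestrogen binding site together, and the FPKM ratio of DHCR7 to EBP was 0.416, 0.443 and 0.409 in siPOLR1F, against 0.561, 0.541 and 0.617 in NC. The ratio of MSMO1 to EBP was 0.505, 0.542 and 0.507 in siPOLR1F, against 0.980, 0.829 and 0.948 in NC. Both ratios to EBP restate the fold changes already given, and nothing further is read from them.

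**Figure D4:**
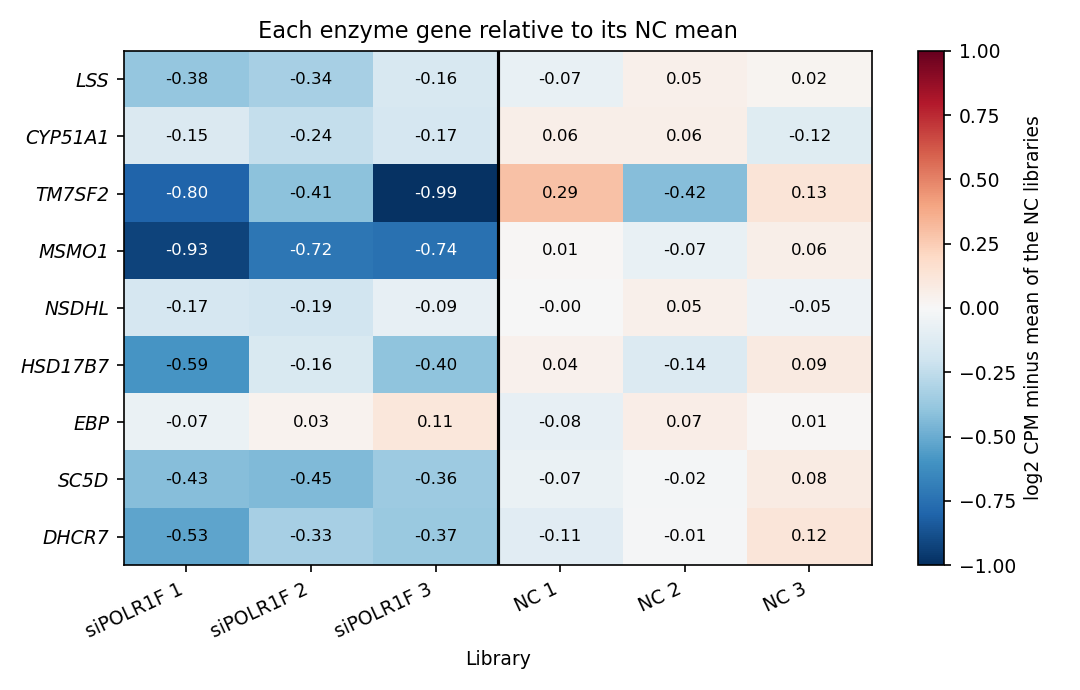
Log2 CPM (CPM from counts with TMM factors) of each enzyme gene in each library minus the mean of its NC libraries, siPOLR1F libraries on the left and NC on the right; colour and number give the same value. TM7SF2 has -0.41 in siPOLR1F replicate 2 and -0.42 in NC replicate 2, while MSMO1 is at or below -0.72 in all siPOLR1F libraries.

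The enzymes differed widely in FPKM, and the order of the means was not the same in the 2 groups. This order depends on the length assigned to each gene and may not be the order of transcript numbers. SC5D had 2080, 2082 and 2296 counts in NC, more than the 1540, 1540 and 1485 of NSDHL, yet a lower FPKM. In NC the order of mean FPKM was EBP (20.1), MSMO1 (18.4), LSS (14.3), CYP51A1 (12.4), DHCR7 (11.5), NSDHL (11.0), TM7SF2 (3.33), SC5D (3.09) and HSD17B7 (2.46). The ranges of EBP and MSMO1 overlapped, as did those of CYP51A1 and DHCR7, of DHCR7 and NSDHL, and of TM7SF2 and SC5D, while the other neighbours were apart. MSMO1 ranked second by FPKM in all NC libraries and took rank 5, 3 and 4 in siPOLR1F replicates 1, 2 and 3. In siPOLR1F the ranges of LSS, CYP51A1 and MSMO1 overlapped. EBP ranked first in all 6 libraries. The order also varied inside NC, where 7, 5 and 7 of the 9 genes held their rank of the NC mean in replicates 1, 2 and 3. Within the siPOLR1F group, replicate 1 had the lowest log2 CPM for 5 of the 9 genes and replicate 3 for 1 of the 9.

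The deposited annotation places all 9 genes in the endoplasmic reticulum membrane and in the Steroid biosynthesis pathway, a term that 20 genes of the table carry. LSS and NSDHL are also annotated to lipid droplets. Iron ion binding is annotated to CYP51A1, MSMO1 and SC5D, the enzymes of the group that use molecular oxygen, with log2 fold changes of -0.19, -0.80 and -0.41. The genes are spread over chromosomes 1, 4, 7, 11, 21 and X, with TM7SF2, SC5D and DHCR7 on chromosome 11 and NSDHL and EBP on chromosome X.

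Genes of the earlier pathway and of its control were set beside these enzymes by lists of genes. Of the 9 genes from acetyl-CoA to squalene epoxide that are reported here, 5 fell, 0 rose and 4 did not pass, with a median log2 fold change of -0.38. That median was -0.24 with limma on log2(FPKM + 1). For this and the following lists, the share over all tested genes is 6.94% called lower and 10.3% called higher. IDI1, the isomerase of the isoprenoid units, fell by 0.63 on the log2 scale, FDFT1, which makes squalene, fell by 0.60, and SQLE, which makes squalene epoxide, fell by 0.39. All 3 were called in each of the 16 settings. Of 7 partners of the enzymes, such as electron donors, ERG28 was the only call, and the median was -0.12. The partners called lower numbered 2 with both limma fits and at a mean of at least 5 FPKM, and 0 in the settings where ERG28 lost its call. Of the 10 tested genes of the SREBP system and sterol uptake that are reported here, 3 fell, 0 rose and 7 did not pass, with a median of -0.17. There were 5 called lower without NC replicate 2, with DESeq2, with robust dispersions and at a mean of at least 5 FPKM, and 2 with no filter. STARD4, a sterol carrier, fell by 0.76 on the log2 scale. INSIG2 and INSIG1, which retain SREBP in the endoplasmic reticulum, fell by 0.73 and 0.50. INSIG1 was not called with no filter (edgeR adjusted p = 0.0579), in a range that started at 1.09e-05.

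Branch genes take intermediates out of the pathway before squalene. Of 9 branch genes 2 rose, 0 fell and 7 did not pass, with a median of 0.02. With DESeq2 and at a mean of at least 5 FPKM 1 branch gene was called lower, and at that filter the median was 0.15 and 1 gene was called higher. PDSS2, needed for the tail of coenzyme Q, had a log2 fold change of 0.42, and FNTA, a subunit of farnesyltransferase, of 0.27. The last list held the LXR genes, LXR targets and genes of sterol efflux or storage. Of its 6 tested genes 2 rose, 0 fell and 4 did not pass, with a median of 0.12. ABCA1, ABCG1 and APOE were below the filter. The median was -0.0008 at a mean of at least 5 FPKM and 0.38 with no filter, and 1 gene was called lower with DESeq2, with library size alone and at a mean of at least 5 FPKM. The number called higher was 0 without siPOLR1F replicate 3, and 1 without any other single library. The risers were the LXR genes NR1H2 (0.27) and NR1H3 (0.64), and no LXR target or gene of efflux or storage was called as reported. NR1H3 was low, at 0.802 FPKM in siPOLR1F and 0.509 FPKM in NC, and was called in 5 of the 15 settings that tested it, with adjusted p from 0.0188 to 0.113. Without siPOLR1F replicate 3, NR1H2 (edgeR adjusted p = 0.0638, the highest of a range from 6.04e-04) and PDSS2 (0.0515, the highest of a range from 3.61e-04) did not pass either. All these lists are described by counts only, and share the same libraries as the enzymes.

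The genes whose profile over the 6 libraries was most like the mean profile of the 9 enzymes were TPX2, a spindle factor (Pearson's r = 0.998), UBE2Q1 (0.998), TSPAN4 (0.997), H2AX, a histone of the DNA damage response (0.996), and ARFGAP2 (0.996), among 11655 candidates. The measure is dominated by the difference between the groups, which these profiles share. TPX2 was at 107, 115 and 117 FPKM in siPOLR1F, against 129, 134 and 133 FPKM in NC. The nearest genes of the sterol lists were SQLE at rank 63, IDI1 at rank 92 and FDFT1 at rank 169.

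**Figure D5:**
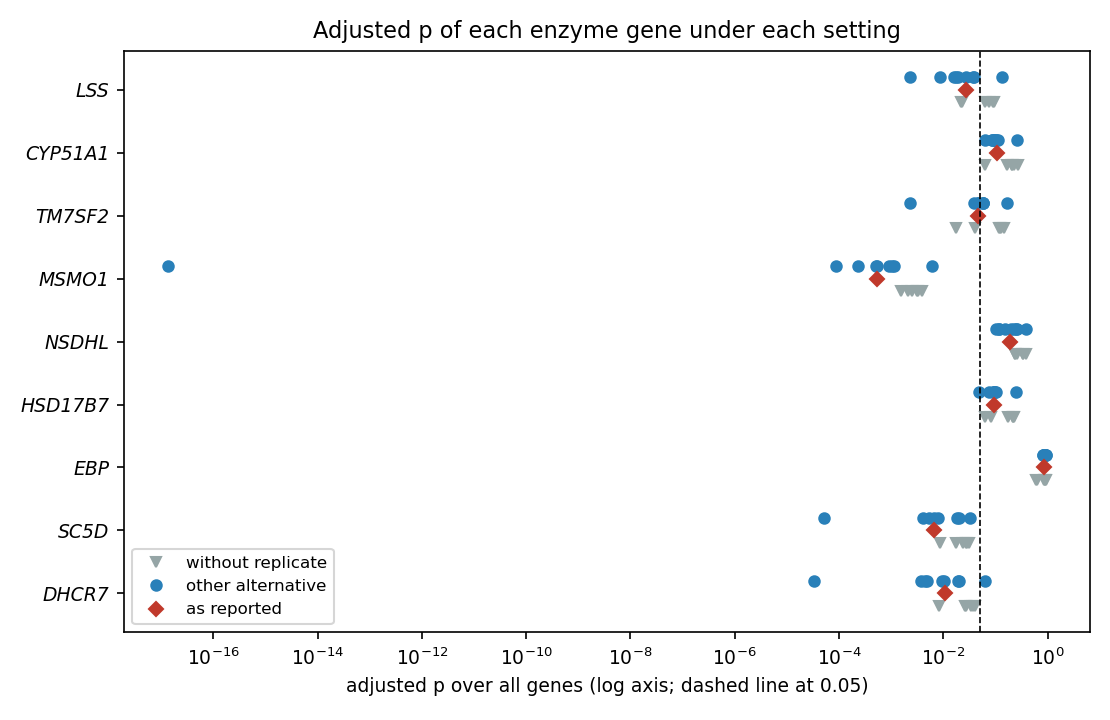
Adjusted p over all genes (log axis) of each enzyme gene as reported, under other tools, scalings and filters, and with 1 library left out; the dashed line marks 0.05. MSMO1 and SC5D stay left of the line in every setting that tested them, and the points of LSS and TM7SF2 fall on both sides.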

How the data were processed

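Poly(A) RNA of 3 siPOLR1F and 3 NC libraries was sequenced in pairs of 150 bases from 1 µg of total RNA, per the labels' protocols. The submitters' processing notes name fastp, HISAT2 and StringTie with GRCh38 (hg38). The sources used here give no versions, annotation release or strand setting. The authors deposited a whole-number count and an FPKM per gene and library, and both were used as deposited. Counts were tested with edgeR 4.0.16 (TMM, glmQLFit, glmQLFTest, two-sided; R 4.3.3) in 13564 genes whose FPKM averaged 0.5 or more, with Benjamini-Hochberg adjustment over all of them and a threshold of 0.05. They hold 99.4% of all counts. The common dispersion gave a biological coefficient of variation of 0.137. The SE is the log2 fold change over the square root of F. The members and lists were chosen with earlier results of these data known. Some genes of the lists are not reported here and were taken out of the list counts, though not out of the fit. Of the 48 remaining list symbols 47 were in the table and 42 were tested. Named genes were all members, POLR1F, LBR, up to 3 called genes per list by adjusted p, and the 5 most similar profiles with a mean of at least 1 FPKM. FAXDC2 was below the filter. Exact permutation of 3 against 3 libraries cannot give a p below 0.1. Alternatives were DESeq2 1.42.0, limma 3.58.1 on log2 FPKM, other scalings and filters, robust dispersions, a block for the replicate number, and fits without each library in turn. The edgeR step was tested on simulated data. By chi-square tests, replicates differed by more than counting error in every pair. Promoters came from RefSeq (GRCh38.p14), where all 9 genes matched. A planned comparison of protein sequences was not run. Profiles used log2 CPM with a prior count of 1.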

Additional observations from a re-analysis of the deposited data

How the results depend on the processing

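Of the 9 enzyme genes, 5 were called lower as reported, 2 with no expression filter (MSMO1 and SC5D) and 3 of the 6 still tested at a mean of at least 5 FPKM (MSMO1, LSS and DHCR7). Leaving out 1 library gave 3 to 4 called lower and 0 called higher, with MSMO1, SC5D and DHCR7 called each time. The other settings gave 4 to 6. Over all genes, 942 were called lower and 1391 higher as reported, 313 and 663 with no filter, and 423 to 841 lower and 730 to 1326 higher with 1 library left out. With no filter all 33539 genes entered the fit and the adjustment. The cause of these changes was not tested. With the replicate number as a block, 4 of the enzyme genes were called lower (TM7SF2 was not), and 1125 lower and 1517 higher over all genes. Deviations of same-numbered libraries correlated at 0.294, 0.0284 and 0.283, and those of other-numbered libraries at -0.280 to -0.00615. Each library thus correlated best with its own number, though for number 2 the value was only 0.0284. Deviations from a mean of 3 libraries are bound to each other, so these correlations are not separate matches. The labels do not say whether the numbers pair the libraries, and the reported fit left them unpaired. A pairing is therefore possible, and the call of TM7SF2 depends on it. Of the 5 most similar genes, 2 were among the first by Spearman's rho, where 102 genes tied at the top, and 3 without MSMO1 in the mean profile. No called enzyme gene changed sign. CPM in place of FPKM moved the level ratio of each of the 9 genes by less than 1 SD of its siPOLR1F libraries. CYP51A1 and NSDHL did not pass the adjusted threshold in any setting, although their groups did not overlap in FPKM.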
